A study of Mus musculus with 8 samples.

Results

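Enzyme genes of glycolysis, lipid metabolism and amino acid synthesis were followed in T cells that had met foreign spleen cells for 5 days with or without a blockade of costimulation. The genes were Hk2, Tpi1, Idi1, Scd1, Acot7, Asns and Psat1, which are 7 of the 289 genes that could be named and are carried by 12 of the 409 probe sets in the authors' deposited list. The members were chosen from that list with earlier results of these data in view, and every listed probe set differs at least 2-fold between the 4 blockade and the 4 untreated arrays, so their difference with treatment is given as a description, without a test.

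Under the blockade Hk2, Tpi1, Idi1, Acot7, Asns and Psat1 had lower signal in both CD4 and CD8 T cells, and Scd1 had higher signal in both. The largest difference was that of Asns in CD8 cells, at -2.76 ± 0.22 on the log2 scale (difference of the means of 2 and 2 arrays ± SE of the fit), or 6.76-fold. None of the 7 genes passed an adjusted test between CD8 and CD4 cells, where 2.50% of all features passed without treatment and 2.20% under blockade, so that 0 of 7 lies near the background.

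In a mixed lymphocyte reaction, cells of different strains are cultured together so that T cells respond to foreign tissue antigens. Here CFSE-labelled C57BL/6 splenocytes met FVB/N splenocytes that had received 30 Gy. Nothing was added to the untreated cultures, and the blockade cultures held 50 µg each of anti-CD40L, anti-LFA-1 and CTLA4-Ig, which block contacts that T cells use beside the antigen signal. The 4 groups were CD4 untreated, CD4 blockade, CD8 untreated and CD8 blockade cells, each sorted as CFSE-positive and CD4- or CD8-positive and each measured on 2 Affymetrix Mouse430_2 arrays. The labels give 4 mice per group but do not state whether the 2 arrays of a group had separate cultures behind them, so errors and p-values here rest on array-to-array spread that could be purely technical. One label calls the staining antibodies anti-human although the cells are murine.

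Resting T cells burn little glucose. After full activation they take up glucose and amino acids, switch to aerobic glycolysis and build the lipids, nucleotides and proteins that dividing cells require. Costimulation is known to promote this switch. Hexokinase and triosephosphate isomerase act in glycolysis, isopentenyl-diphosphate isomerase in the mevalonate pathway to sterols, stearoyl-CoA desaturase and acyl-CoA thioesterase on fatty acyl chains, and asparagine synthetase and phosphoserine aminotransferase in making asparagine and serine.

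The deposited values are read as log2 and are centred, each probe set having a median of 0 across the 8 arrays. A value therefore shows how arrays differ for 1 gene and says nothing of how strongly that gene was expressed. When the 4 blockade and the 4 untreated arrays of a probe set do not overlap, the zero point lies midway between the nearest arrays of both sides, so that values of equal size and opposite sign in the middle are a product of the centring; for a gene averaged over several probe sets this holds only in part. The blockade and untreated arrays did not overlap for any of the 7 genes, nor for any of the 289 named genes, which the selection favours. Over all 44951 features, 11.8% showed such a separation.

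The glycolytic gene Hk2 encodes hexokinase 2, the inducible enzyme that phosphorylates glucose on entry. Its values were 0.46 and 1.01 on the CD4 untreated arrays, -0.85 and -0.97 on the CD4 blockade arrays, 0.71 and 0.88 on the CD8 untreated arrays and -0.46 and -0.47 on the CD8 blockade arrays. The lowest untreated array of either subset lay 0.91 above the highest blockade array. The difference between blockade and untreated cells was -1.64 ± 0.17 in CD4 cells (3.12-fold lower) and -1.26 ± 0.17 in CD8 cells (2.40-fold lower).

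Tpi1 encodes triosephosphate isomerase, which interconverts the triose phosphates made by aldolase. The mean of its 3 listed probe sets was 0.43 and 1.15 in CD4 untreated cells, -0.43 and -0.45 in CD4 blockade cells, 0.35 and 0.59 in CD8 untreated cells and -0.56 and -0.35 in CD8 blockade cells. The 2 CD4 untreated arrays stood further apart than those of any other group for this gene. The difference was -1.23 ± 0.21 in CD4 cells and -0.93 ± 0.21 in CD8 cells, where it was under 2-fold. The 3 probe sets gave differences of -1.32 to -1.16 in CD4 cells and -1.03 to -0.86 in CD8 cells. Among the 12 listed probe sets, 2 of Tpi1 lay nearest to the 2-fold limit of the list, with differences of -1.01 and -1.05 between the 4 blockade and the 4 untreated arrays, followed by that of Scd1 at 1.12. Just outside the limit lay unnamed probe sets at 0.999 and -0.997.

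**Figure D1:**
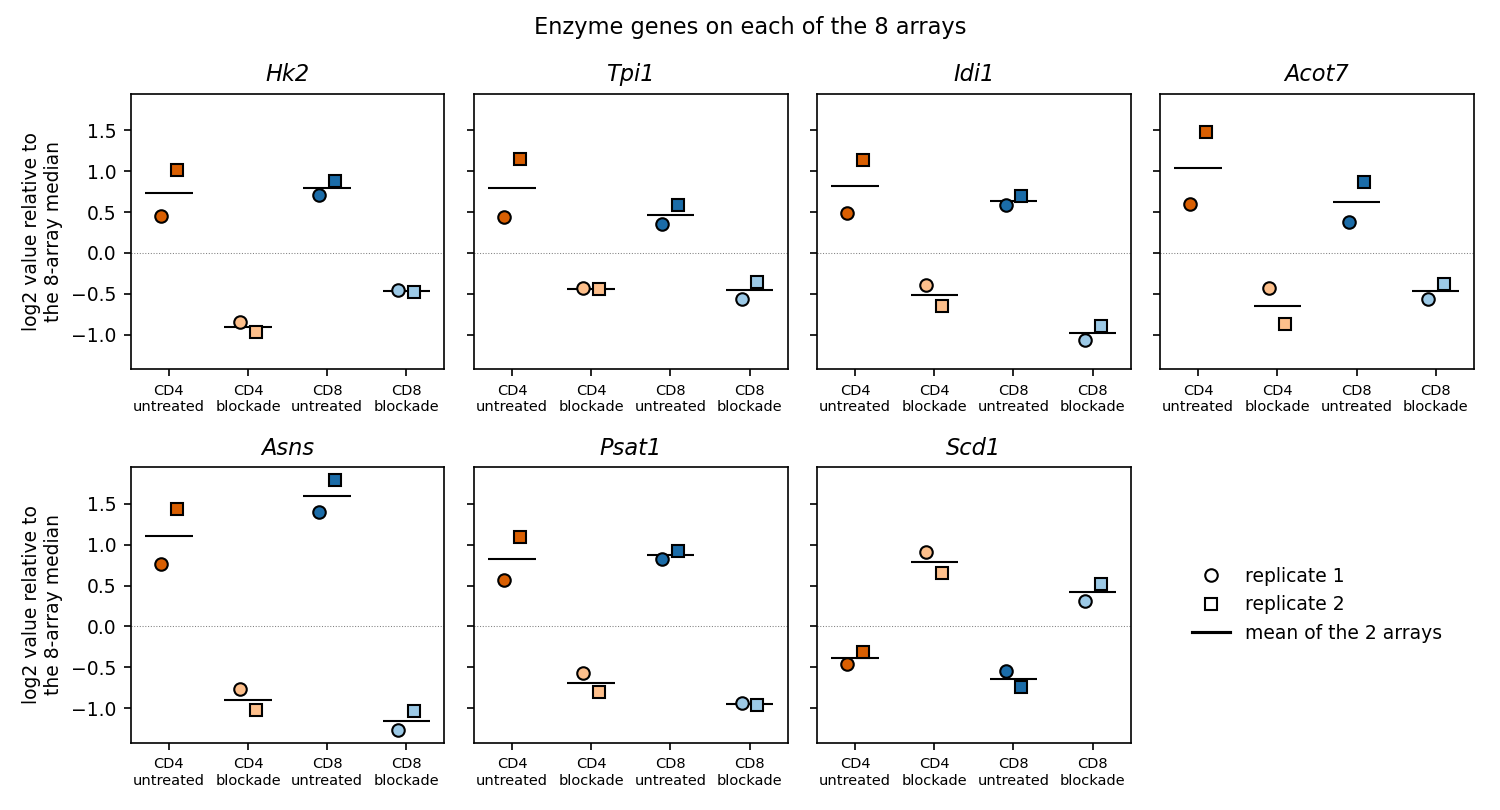
Signal of the 7 enzyme genes on each array, as log2 values relative to the 8-array median of each probe set (vertical axis), by group (horizontal axis); circles are replicate 1, squares replicate 2 and lines the mean of the 2 arrays. In 6 panels both untreated groups lie above both blockade groups, by at least 0.71 between the nearest arrays, and in the Scd1 panel they lie below them by at least 0.62.

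Asns encodes asparagine synthetase, which makes asparagine from aspartate and glutamine and is a well-known target of the amino acid response. Its values, the mean of 2 probe sets, were 0.77 and 1.44 in CD4 untreated cells, -0.77 and -1.02 in CD4 blockade cells, 1.41 and 1.80 in CD8 untreated cells and -1.27 and -1.04 in CD8 blockade cells. It had the widest separation of the 7 genes, with 1.54 between the nearest untreated and blockade arrays. The difference was -1.999 ± 0.22 in CD4 cells (4.00-fold lower) and -2.76 ± 0.22 in CD8 cells. Among the 208 named genes that were lower under blockade, this placed Asns at rank 89 in CD4 and rank 29 in CD8 cells. Of its probe sets 1 is of a kind (_x_at) that can also bind related transcripts. The same limit holds for 1 probe set of Tpi1 (_x_at, the one at -1.01) and 1 of Psat1 (_s_at). The 2 probe sets of Asns gave -2.15 and -1.85 in CD4 cells and -3.07 and -2.44 in CD8 cells.

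Psat1 encodes phosphoserine aminotransferase, which works on the path from a glycolytic intermediate to serine. It stood at 0.57 and 1.09 in CD4 untreated cells, -0.57 and -0.81 in CD4 blockade cells, 0.83 and 0.93 in CD8 untreated cells and -0.93 and -0.96 in CD8 blockade cells. The 2 arrays of each CD8 group lay within 0.096 of each other. The difference was -1.52 ± 0.17 in CD4 cells (2.86-fold lower) and -1.82 ± 0.17 in CD8 cells (3.54-fold lower), and its 2 probe sets differed by 0.077 in CD4 and 0.036 in CD8 cells.

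Idi1 encodes isopentenyl-diphosphate isomerase, which balances the isoprenoid units from which sterols are built. Its 2 probe sets averaged 0.49 and 1.14 in CD4 untreated cells, -0.39 and -0.65 in CD4 blockade cells, 0.58 and 0.70 in CD8 untreated cells and -1.06 and -0.89 in CD8 blockade cells. The CD8 blockade arrays were the lowest of all 8. The difference was -1.34 ± 0.20 in CD4 cells (2.52-fold lower) and -1.62 ± 0.20 in CD8 cells (3.07-fold lower), and in CD8 cells its probe sets ranged from -1.95 to -1.29.

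Acot7, an acyl-CoA thioesterase that releases free fatty acids from coenzyme A, was at 0.60 and 1.48 in CD4 untreated cells, -0.43 and -0.87 in CD4 blockade cells, 0.38 and 0.87 in CD8 untreated cells and -0.56 and -0.38 in CD8 blockade cells. Its replicates were the most scattered of the 7 genes, with an SD of 0.62 between the CD4 untreated arrays. The difference was -1.69 ± 0.28 in CD4 cells (3.23-fold lower) and -1.10 ± 0.28 in CD8 cells (2.14-fold lower).

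Scd1 encodes stearoyl-CoA desaturase, which puts the double bond into saturated fatty acids and so makes oleate. It ran the other way, with -0.47 and -0.31 in CD4 untreated cells, 0.91 and 0.66 in CD4 blockade cells, -0.55 and -0.74 in CD8 untreated cells and 0.31 and 0.53 in CD8 blockade cells. The blockade arrays were the higher ones in both subsets, and the CD8 mean lay below the CD4 mean at both treatments. Scd1 was 1.17 ± 0.13 higher in CD4 cells (2.26-fold) and 1.06 ± 0.13 higher in CD8 cells (2.09-fold). It has 1 listed probe set and ranked 65 and 66 among the 81 named genes that were higher under blockade. Probe sets of Scd1 outside the list, if any, could not be named.

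**Figure D2:**
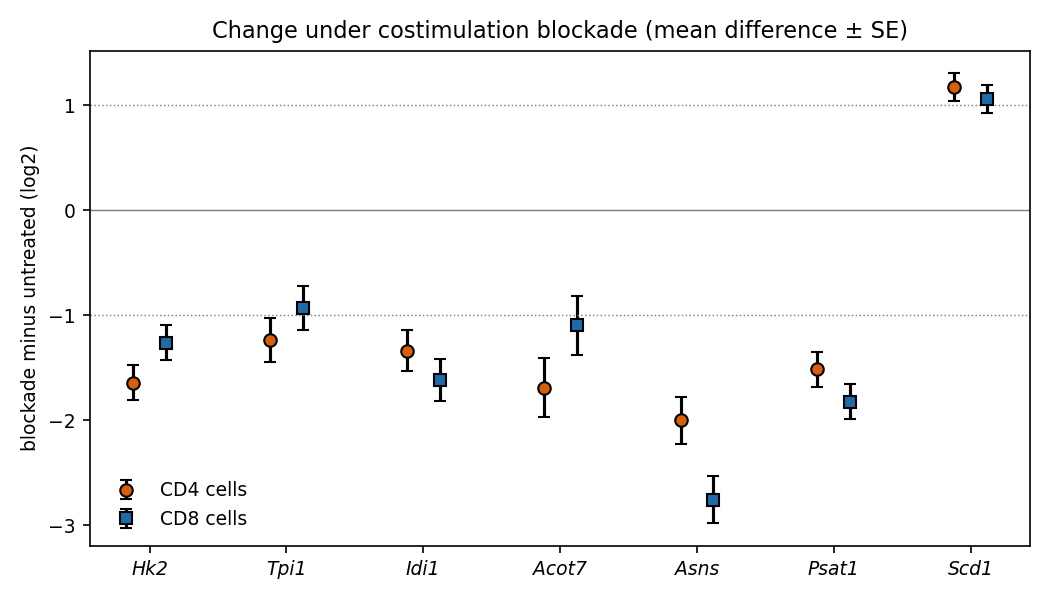
Blockade minus untreated (log2, vertical axis) for each gene in CD4 cells (circles) and CD8 cells (squares), with bars of ± 1 SE from the fit of all 8 arrays and dotted lines at a 2-fold change. Asns in CD8 cells is the lowest point at -2.76, Tpi1 in CD8 cells is the only lower gene above the 2-fold line, and Scd1 is the only gene above 0.

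In CD4 cells 6 of the 7 genes were at least 2-fold lower under blockade, against 1.02% of all features. In CD8 cells 5 were, against 0.647%. The selection of the list fixes these counts in large part, and nothing is read from them. The median difference of the 7 genes was -1.52 in CD4 and -1.26 in CD8 cells, and the medians over all features were 0.010 and 0.018. Without CD4 untreated replicate 2, Tpi1 was at -0.87 in CD4 cells and 5 genes were past 2-fold there; without CD8 untreated replicate 2, Acot7 was at -0.85 in CD8 cells and 4 were. Without CD8 blockade replicate 2 or CD8 untreated replicate 1, 6 were.

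Because 6 of these genes were lower together, the sequence before their starts was read from RefSeq (GRCm38.p6), as far as the table holds it. It holds 7 starts of 6 genes, Psat1 having 2, and the 250 bases before each were searched on both strands for 6 short motifs. The 4 promoters with matches are shown because the motifs below refer to them. They are written 5′ to 3′ on the strand of the gene, ending just before the annotated start, with every match in capitals. They lie at chr6:7693210-7693459 (minus strand, Asns), chr13:8885356-8885605 (plus strand, Idi1), chr6:82774455-82774704 (minus strand, Hk2) and chr19:15925060-15925309 (minus strand, the outer Psat1 start).
Asns: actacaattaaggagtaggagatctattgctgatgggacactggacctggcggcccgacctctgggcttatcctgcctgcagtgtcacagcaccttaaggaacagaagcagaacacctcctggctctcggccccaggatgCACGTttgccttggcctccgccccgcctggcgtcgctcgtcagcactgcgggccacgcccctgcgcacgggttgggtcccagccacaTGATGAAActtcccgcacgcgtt
Idi1: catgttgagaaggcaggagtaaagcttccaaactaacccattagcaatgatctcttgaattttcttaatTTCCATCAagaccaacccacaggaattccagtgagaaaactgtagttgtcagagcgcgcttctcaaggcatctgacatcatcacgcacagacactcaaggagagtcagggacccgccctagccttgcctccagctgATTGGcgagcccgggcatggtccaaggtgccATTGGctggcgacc
Hk2: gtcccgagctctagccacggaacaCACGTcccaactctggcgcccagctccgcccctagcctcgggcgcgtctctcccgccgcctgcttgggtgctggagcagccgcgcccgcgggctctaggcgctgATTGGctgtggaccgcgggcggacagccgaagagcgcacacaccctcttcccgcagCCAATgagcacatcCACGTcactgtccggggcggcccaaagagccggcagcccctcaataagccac
Psat1: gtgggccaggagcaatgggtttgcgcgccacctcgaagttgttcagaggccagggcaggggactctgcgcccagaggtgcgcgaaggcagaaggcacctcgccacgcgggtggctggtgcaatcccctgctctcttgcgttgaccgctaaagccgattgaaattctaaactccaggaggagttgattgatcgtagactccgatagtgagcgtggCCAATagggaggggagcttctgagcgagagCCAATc

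The letters TGATGNAA, the core of the element through which the stress factor ATF4 and its partners act on amino acid genes, were found before Asns, at position -23 from the start, and before Idi1, on the opposite strand at position -181. They are in 3.45% of the 32851 promoters of the table over the same length. CCAAT, the box bound by NF-Y, occurred 2 times each before Hk2, Idi1 and the outer start of Psat1, and is in 33.8% of promoters. ACGTG, the core bound by hypoxia-inducible factor, which is also contained in CACGTG, occurred 2 times before Hk2 and 1 time before Asns, and is in 16.6% of promoters. None of the 7 windows held CACGTG (the E-box bound by MYC, in 6.02% of promoters), TCACNCCAC (a sterol regulatory element, in 1.05%) or TTTNNCGC (an E2F site, in 4.28%). No motif matched before Tpi1, the inner start of Psat1 or the only start of Acot7 held. That Acot7 window ends at chr4:152185607, inside the gene, which begins at 152178100, so its outer start was not searched. A match says only that these letters stand in the window.

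The CD8 and CD4 arrays can be compared within a treatment independently of the contrast on which the list was selected. A test of 4 against 4 arrays counts a gap between the subsets as spread, so the list is not neutral towards such gaps. In limma, with adjustment over all 44951 features, 0 of the 7 genes passed an adjusted p of 0.05 without treatment. Of all features 2.50% passed, and of the 289 named genes 6 passed as higher and 26 as lower in CD8 cells. None of the 7 reached an unadjusted p of 0.05 either, while 5068 of the 44951 features did. Asns came nearest, with CD8 cells 0.50 ± 0.22 above CD4 cells (95% interval -0.0098 to 1.01, limma adjusted p = 0.46). Hk2 differed by 0.062 ± 0.17 (interval -0.32 to 0.45) and Psat1 by 0.049 ± 0.17 (interval -0.33 to 0.43). Acot7, Tpi1, Scd1 and Idi1 had negative differences, from -0.41 to -0.17, with limma adjusted p of 0.559 to 0.85. A p that misses the threshold does not show that the subsets are alike.

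Under the blockade 0 of the 7 genes passed as well, where 2.20% of all features did. Of the 289 named genes 11 passed as higher and 3 as lower in CD8 cells. Hk2, Scd1 and Idi1, 3 of the 7, reached an unadjusted p of 0.05, as did 5351 of the 44951 features. Hk2 was 0.44 ± 0.17 higher in CD8 than in CD4 cells (interval 0.055 to 0.83, limma adjusted p = 0.34). Scd1 differed by -0.37 (interval -0.67 to -0.063, adjusted p = 0.31 by limma) and Idi1 by -0.46 (interval -0.91 to -0.0024, adjusted p = 0.42 by limma). Tpi1 differed by -0.019 ± 0.21.

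The difference between the blockade effects in the 2 subsets was tested in the same limma fit. There 0 of the 7 genes passed, against 0.0578% of all features. Of the 289 named genes 4 passed, each with a positive difference. Among the 7, only Asns had an unadjusted p under 0.05, as 1 of 2243 features to do so. Its blockade effect in CD8 minus that in CD4 cells was -0.76 ± 0.32 (interval -1.48 to -0.039, limma adjusted p = 0.98). Psat1 and Idi1 also had the more negative value in CD8 cells, with differences of -0.31 and -0.28. For Acot7, Hk2 and Tpi1 the more negative value was that of CD4 cells, by 0.59, 0.38 and 0.30. The interval of Acot7 reached from -0.32 to 1.51 and that of Scd1, the narrowest, from -0.54 to 0.32.

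**Figure D3:**
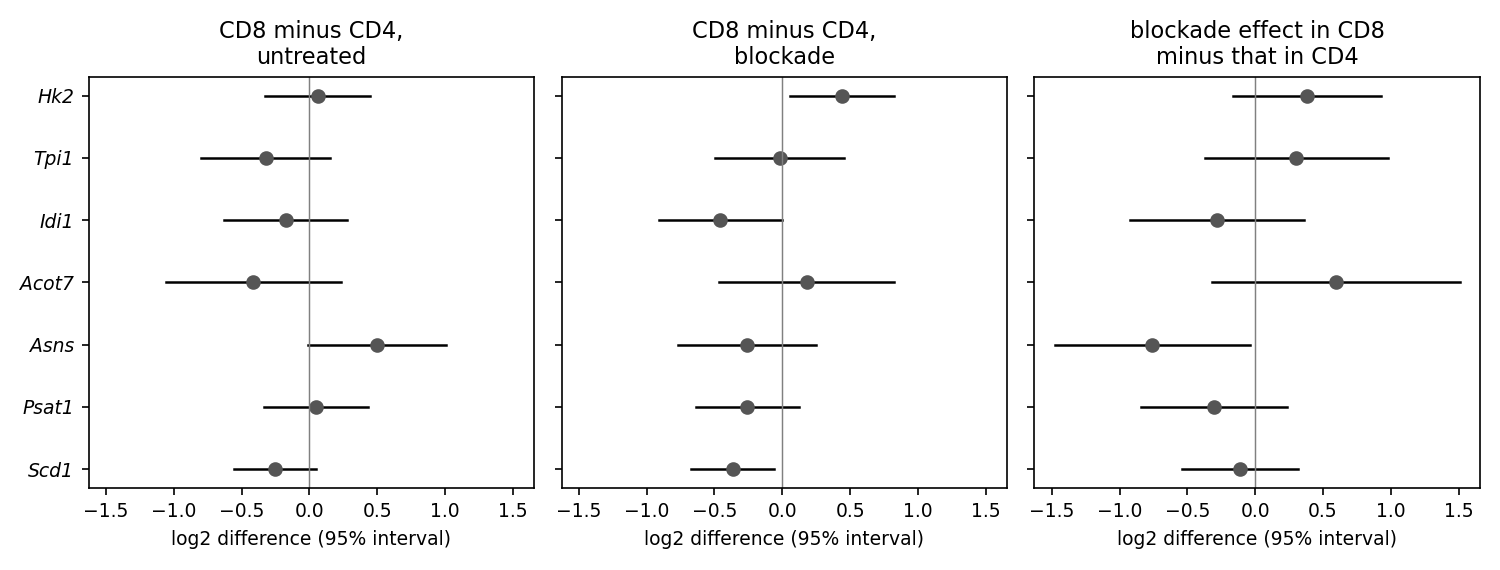
Log2 differences (horizontal axis, points) with 95% intervals from limma (lines) for the 7 genes, for CD8 minus CD4 untreated cells, CD8 minus CD4 blockade cells and the blockade effect in CD8 minus that in CD4. Intervals of Hk2, Idi1 and Scd1 in the middle panel and of Asns in the right panel leave out 0 before adjustment; no gene passed after it.

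In the order of the 4 group means, Asns ran from CD8 untreated (1.60) through CD4 untreated (1.10) and CD4 blockade (-0.90) to CD8 blockade (-1.15). Psat1 had the same order. Hk2 was highest in CD8 untreated cells (0.80) and lowest in CD4 blockade cells (-0.91), and Scd1 was highest in CD4 blockade cells (0.79) and lowest in CD8 untreated cells (-0.64). Idi1, Tpi1 and Acot7 were highest in CD4 untreated cells, at 0.82, 0.79 and 1.04. The 2 subsets at 1 treatment are neighbours in each of these orders. The lack of overlap between the treatments fixes this for every one of the 289 named genes, so nothing is read from it. No difference between the 2 subsets passed after adjustment.

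Other genes of the same pathways could be followed only where they are in the authors' list. Of 29 glycolysis genes 3 could be named, of 27 genes of sterol and isoprenoid synthesis 1, of 30 fatty acid genes 3, of 31 amino acid genes 6, of 33 genes of the integrated stress response and amino acid transport 1, and of 23 nucleotide synthesis genes 2. Besides Hk2 and Tpi1 the glycolytic list held Eno3 (an enolase best known from muscle), at -1.71 ± 0.20 in CD4 and -0.92 ± 0.20 in CD8 cells. Among amino acid genes, Bcat1 (a branched-chain aminotransferase) was at -1.36 ± 0.23 and -1.75 ± 0.23, and Shmt1 (which moves a carbon unit from serine to folate) at -1.26 ± 0.15 and -1.42 ± 0.15. Both had lower signal under blockade, like Asns and Psat1. Il4i1 (an oxidase that degrades amino acids) was higher instead, by 1.95 ± 0.13 in CD4 and 2.06 ± 0.13 in CD8 cells. Beside Scd1, the fatty acid carrier Fabp4, which is also in the list of macrophage and dendritic cell markers below, was higher by 2.00 ± 0.41 and 1.95 ± 0.41. The tryptophanyl-tRNA synthetase gene Wars was at -1.44 ± 0.099 in CD4 and -0.9996 ± 0.099 in CD8 cells. The nucleotide genes were at -2.15 and -2.39 ± 0.24 (Rrm2, ribonucleotide reductase) and at -1.52 and -1.20 ± 0.33 (Tk1, thymidine kinase). All of these come from the same selected list. Of these pathway genes only Wars passed a test between the subsets, being lower in CD8 than in CD4 cells without treatment (-0.47, limma adjusted p = 0.0471). That call did not hold when any 1 array was left out (limma adjusted p = 0.0715 to 0.294), in the fit of the 4 untreated arrays alone (0.129) or with quantile normalization (-0.26, 0.448).

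The 2 arrays of a group were also set against each other. CD4 untreated replicate 2 was above replicate 1 for all 6, by 0.53 to 0.87, whereas the SD of this difference over all features was 0.20 and its median -0.0068. In CD8 untreated cells replicate 2 was above replicate 1 for all 6 genes again, by 0.096 to 0.49, and in CD4 blockade cells the difference was -0.43 to -0.016. In CD8 blockade cells the 6 genes were split, with 4 higher and 2 lower on replicate 2 and differences of -0.025 to 0.23. Of the 208 named genes that were lower under blockade, replicate 2 was the higher array for 132 in CD4 untreated cells (median 0.28), 106 in CD8 untreated cells (median 0.0071), 82 in CD4 blockade cells and 125 in CD8 blockade cells. Among cell division genes, all 21 that could be named of 37 were higher on CD4 untreated replicate 2 than on replicate 1, with a median of 0.60, 17 were higher on CD8 untreated replicate 2, 4 on CD4 blockade replicate 2 and 13 on CD8 blockade replicate 2. Scd1 differed by 0.15 between the CD4 untreated arrays and by -0.19 between the CD8 untreated arrays. Medians of the hybridization and poly-A spike-in controls were furthest from 0 on CD8 blockade replicate 1 (0.92 and 0.79) and CD4 untreated replicate 2 (-0.23 and -0.44). The next poly-A median was -0.34, on CD8 blockade replicate 2, and the first 2 arrays were picked after seeing the values, by no set limit. Without the first 2 arrays, 5 of the 7 genes were at least 2-fold lower under blockade in each subset and 0 passed a test between the subsets.

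**Figure D4:**
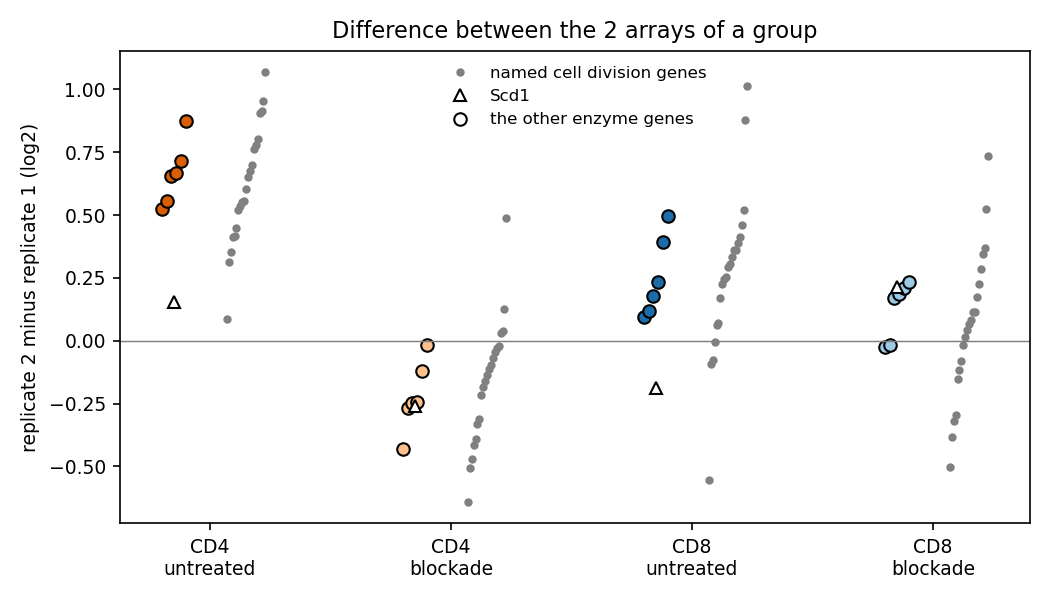
Replicate 2 minus replicate 1 (log2, vertical axis) in each group (horizontal axis) for the 6 genes lower under blockade (circles), Scd1 (triangles) and the 21 named cell division genes (grey dots). In CD4 untreated cells all 6 circles lie between 0.53 and 0.87 and all grey dots lie above 0.

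Over the 8 arrays, Pearson's r between any pair of the 6 genes was 0.91 to 0.99 and that between Scd1 and each of them -0.946 to -0.815. The points share arrays and treatments, and all 7 genes were selected on the treatment difference, so these values are a description. For each member, the 3 genes with the smallest root mean square difference over the 8 arrays were taken from the other 282 named genes. For Hk2 they were Cenpw (a kinetochore protein, 0.12 log2 units), Ccnb1 (cyclin B1, 0.15) and Bub1b (a spindle checkpoint kinase, 0.19). For Tpi1 they were Kif2c (a mitotic kinesin, 0.10), Ms4a2 and Ckap2. For Idi1 they were Cdca5, Spc25 and Cip2a, for Psat1 Cdca8, Cdca3 and Spc25, and for Acot7 E2f8 (a cell cycle transcription factor, 0.12), Cks2 and Eno3. Asns was less closely matched, with Serpine2 (a protease inhibitor), Pclaf and Ccna2 (cyclin A2) at 0.23 to 0.25. Of these 18 places 5 went to genes of the cell division list, which holds 21 of the 282 genes searched. The others went to a glycolysis gene (Eno3, 1 place), a marker of mast cells and basophils (Ms4a2, 1 place) and genes in no list (11 places). The cell division list is not complete. Cenpw, Kif2c and E2f8 are in no list, so 5 undercounts genes of that kind. The 282 also hold genes higher under blockade, which the selection keeps far from a lower gene. The share of 21 in 282 is therefore no background for the 5. The genes nearest to Scd1 were Bcl11a (0.12), Fcrla (0.15) and Cybb (0.16), of which Bcl11a and Fcrla are in the B cell list and Cybb in the list for macrophages and dendritic cells.

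Genes of cell division and markers of other cell types in the same selected list also differed with treatment. The mean of the 21 cell division genes lay at 0.73 to 1.41 on the untreated and -0.95 to -0.76 on the blockade arrays, and that of the 6 enzyme genes at 0.55 to 1.22 and -0.81 to -0.57. Of 37 B cell markers 25 could be named. They include the MHC class II genes H2-Aa, H2-Ab1 and H2-Eb1, which the macrophage and dendritic cell list does not hold. All 25 were higher under blockade in both subsets, their mean being -0.82 to -0.68 on untreated and 0.65 to 0.84 on blockade arrays, with Ms4a1 (CD20) among them. The 3 named of 21 macrophage and dendritic cell markers, Fabp4 and Cybb among them, were higher too, with means of -1.17 to -0.77 and 0.65 to 1.24. All 9 named of 22 neutrophil markers and all 5 named of 12 mast cell and basophil markers were lower, the former at 1.00 to 1.80 on untreated and -1.52 to -0.96 on blockade arrays and the latter at 1.35 to 2.07 and -1.62 to -1.36. None of 15 T cell markers, Cd4 and Cd8a included, could be named, so the sorted identity could not be checked, and values centred by row do not tell whether a marker is near absence. In RNA of a bulk sample, fewer cells of a type and less RNA per cell cannot be told apart. The part of other cell types and of cell division in the values of the 7 genes was not tested.

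**Figure D5:**
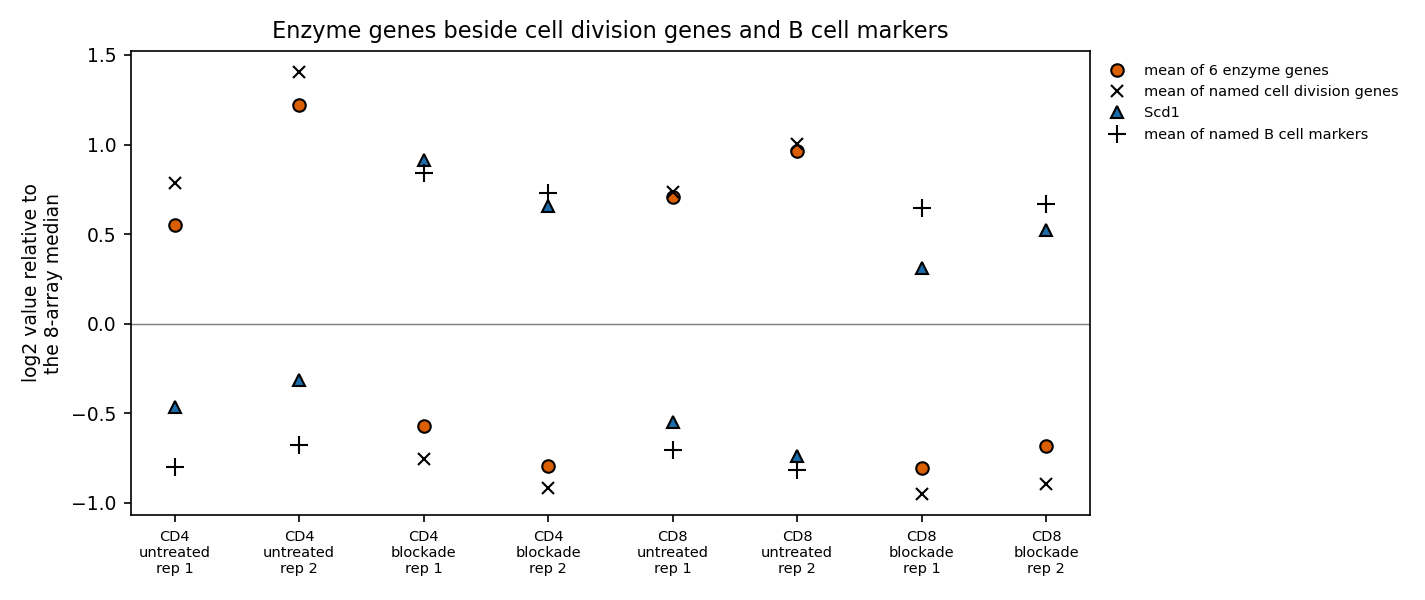
Mean of the 6 enzyme genes lower under blockade (circles), mean of the 21 named cell division genes (crosses), Scd1 (triangles) and mean of the 25 named B cell markers (plus signs) on each array, as log2 values relative to the 8-array median (vertical axis). The enzyme mean and the cell division mean are both highest on CD4 untreated replicate 2, at 1.22 and 1.41. The side of 0 on which each symbol lies is fixed by the selection of the list and the centring.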

How the data were processed

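RNA of sorted T cells was measured on 8 arrays in 4 groups of 2, assigned from the sample titles. The deposited table held 45101 probe sets, read as log2 values that the authors normalized; each row has a median of 0. No source used here gives the log base, summary method or normalization, and another base would rescale every difference alike. Per the file headers, the authors' list was made with an unpaired T test and a corrected p-value limit of 0.05, without naming the conditions; its 409 probe sets repeat the table's values exactly.

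Names came from that list only. Of its probe sets 375 had 1 gene, 22 several and 12 none; 33 symbols were updated through RefSeq (GRCm38.p6). After 64 control probe sets were dropped, the listed probe sets of each of the 289 named genes were averaged, leaving 44951 features. A group-means model of all 8 arrays was fitted with lmFit and eBayes (limma 3.58.1 under R 4.3.3). Tests were two-sided, adjusted by Benjamini-Hochberg over all features, with a threshold of 0.05. The script was tested on simulated data. No depth applies to arrays; precision is limited by 2 arrays per group.

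All 7 genes are named, with the nameable genes of their pathway lists, apart from 1 that is not reported here, and the 3 nearest named genes of each member. Members, lists and motifs were chosen with earlier results of these data known. Alternatives were the replicate block, single arrays left out, quantile normalization, array weights, single probe sets, robust eBayes, fits of 4 arrays and a threshold of 0.01, and, added after seeing the data, leaving out the 2 arrays with the most extreme spike-ins and running all of these for Wars except single probe sets.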

Additional observations from a re-analysis of the deposited data

How the results depend on the processing

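In every alternative run, 0 of the 7 genes passed an adjusted p of 0.05 in limma between CD8 and CD4 cells untreated, under blockade or in the difference of effects. At least 2-fold lower under blockade were 5 to 6 genes in CD4 cells and 4 to 6 in CD8 cells when single arrays were left out, and 5 in each subset without the 2 arrays with the most extreme spike-ins. With the replicate number as a block the counts were 0, 0 and 0, and 6 and 5, as without it. The differences between replicates, taken over all features, correlated between groups by -0.030 to 0.077. So low a correlation over all features does not exclude that the numbers pair the samples. Over all features, 1123 passed in untreated cells, 1289 with array weights, 1152 with quantile normalization, 854 with only the 4 arrays and 622 at 0.01. Under blockade 990 passed, 998 with quantile normalization, 885 with array weights, 628 with only the 4 arrays and 530 at 0.01. For the difference of effects 26 passed, 23 with array weights, 16 with quantile normalization and 8 at 0.01. Runs with arrays left out also had fewer arrays to fit, and the cause of the lower counts was not tested.

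Signs turned only for differences between subsets that had not passed. With single arrays left out, CD8 minus CD4 untreated ranged from -0.85 to 0.022 for Acot7, -0.22 to 0.34 for Hk2, -0.50 to 0.15 for Idi1, -0.21 to 0.31 for Psat1 and -0.68 to 0.035 for Tpi1. Leaving out CD4 untreated replicate 2 turned Acot7, Idi1 and Tpi1. So did leaving out the 2 arrays with the most extreme spike-ins (0.022, 0.15 and 0.035). Under blockade the ranges were -0.037 to 0.40 for Acot7 and -0.12 to 0.086 for Tpi1, which was at 0.086 without both. For the difference of effects they were -0.61 to 0.044 for Idi1, -0.24 to 0.016 for Scd1 and -0.054 to 0.66 for Tpi1. Quantile normalization turned Idi1 untreated (0.042) and Tpi1 under blockade (0.015). It also moved CD8 minus CD4 untreated of Asns from 0.50 to 0.72, where the limma adjusted p was 0.0686, against 0.457 in the main fit. With single arrays left out this difference of Asns ranged from 0.17 to 0.83. Wars passed in 2 alternatives, array weights and robust eBayes, and in no other alternative; with the replicate block its limma adjusted p was 0.0744. The fit of 4 arrays cannot give a difference of effects. The direction of the blockade differences was fixed by the selection and is no sign of stability.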
